A study of Mus musculus with 30 samples.

Results

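Transcripts of 10 Polycomb subunits were followed in mouse embryonic stem cells that lack KMT2C, with or without KMT2D, while the transcription factor GRHL2 was switched into the nucleus. The 10 genes were taken by symbol from the deposited expression table: Ezh2, Eed, Suz12, Jarid2 and Mtf2 of Polycomb repressive complex 2 (PRC2), and Rnf2, Ring1, Cbx7, Pcgf6 and Kdm2b of Polycomb repressive complex 1 (PRC1). All 10 were in the table, among 12428 genes, and all 10 passed the filter on low values. The cells, C57BL/6J x 129 in origin and naive in state, were kept in medium with serum, leukaemia inhibitory factor, a MEK inhibitor and a GSK3 inhibitor. The first genotype, Kmt2cKO; Kmtd fl/fl without a transgene, was treated with tamoxifen. The second carried the GRHL2-ERT transgene on the same background (Kmt2cKO; Kmtd fl/fl;GRHL2-ERT) and is called the Kmt2c-KO line. The third, Kmt2cKO; Kmt2dKO;GRHL2-ERT, lacks both enzymes and is called the double-KO line. Both transgenic lines received ethanol, the solvent, or tamoxifen, and each genotype was harvested after 8 h or 16 h. That gave 10 groups of 3 libraries, 30 libraries in all, each a 3' end capture RNA-seq library. Deletion of Kmt2c was common to every group, so no library shows a wild-type level. Per the series' design text, transgenic clones were picked for comparable GRHL2 expression. The number of clones is not given in the sources used here, so the genotype and the clone cannot be told apart in a comparison of the lines.

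Polycomb complexes keep developmental genes silent in embryonic stem cells. PRC2 methylates histone H3 at lysine 27 and PRC1 ubiquitinates histone H2A, and each mark helps to bring in the other complex. KMT2C and KMT2D act on the other side: they place methyl groups on lysine 4 of histone H3 at enhancers and belong to complexes that hold a lysine 27 demethylase. GRHL2 is a transcription factor of epithelial genes. Fused to the ligand-binding domain of the oestrogen receptor, it enters the nucleus once tamoxifen is added.

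KDM2B and MTF2 both bring Polycomb complexes to unmethylated CpG dinucleotides, and the promoters of Polycomb genes are themselves mostly rich in CpG. The 250 bases before a transcript start are printed for the genes whose RNA differed most clearly below, with every CpG in capitals (RefSeq, GRCm38.p6, written 5′ to 3′ on the gene's strand). For Kdm2b the farthest upstream and the farthest downstream of 4 listed starts are shown, because the 2 starts give proteins with and without the demethylase domain and a 3' tag cannot tell them apart. The windows are chr5:122989100-122989349 (minus strand) and chr5:122900351-122900600 (minus strand) for Kdm2b, chr5:108065424-108065673 (plus strand) for Mtf2 and chr13:44730524-44730773 (plus strand) for Jarid2.
Kdm2b upstream start: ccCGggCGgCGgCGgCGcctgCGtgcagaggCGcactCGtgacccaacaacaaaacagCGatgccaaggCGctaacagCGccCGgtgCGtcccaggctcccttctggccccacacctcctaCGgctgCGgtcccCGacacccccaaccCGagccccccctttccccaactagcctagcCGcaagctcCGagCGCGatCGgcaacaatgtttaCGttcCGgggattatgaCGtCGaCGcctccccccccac
Kdm2b downstream start: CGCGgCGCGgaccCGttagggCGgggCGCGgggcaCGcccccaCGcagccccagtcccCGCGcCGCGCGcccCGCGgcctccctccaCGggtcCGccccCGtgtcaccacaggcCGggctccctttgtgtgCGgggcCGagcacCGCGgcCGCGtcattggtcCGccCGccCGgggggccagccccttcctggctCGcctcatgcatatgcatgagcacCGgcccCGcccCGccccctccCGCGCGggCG
Mtf2: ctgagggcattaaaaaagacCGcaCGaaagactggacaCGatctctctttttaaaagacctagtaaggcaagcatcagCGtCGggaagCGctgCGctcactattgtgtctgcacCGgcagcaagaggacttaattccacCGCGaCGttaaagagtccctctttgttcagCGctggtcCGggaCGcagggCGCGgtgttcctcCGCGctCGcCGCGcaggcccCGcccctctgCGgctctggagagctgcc
Jarid2: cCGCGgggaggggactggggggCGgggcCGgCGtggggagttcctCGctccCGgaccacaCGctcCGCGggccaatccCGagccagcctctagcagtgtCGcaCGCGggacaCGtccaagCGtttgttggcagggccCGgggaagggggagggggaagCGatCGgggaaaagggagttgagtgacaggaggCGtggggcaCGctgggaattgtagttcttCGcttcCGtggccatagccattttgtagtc
The Kdm2b windows held 27 and 38 CpGs, and the Mtf2 and Jarid2 windows 23 each. Of all 32851 windows in the table, 91.4% held fewer CpGs than the upstream Kdm2b window, 98.1% fewer than the downstream one and 86.7% fewer than those of Mtf2 and Jarid2. Over the 10 genes there were 15 windows with 2 to 38 CpGs (median 23), against a median of 6 over all windows. The lowest of the 15 was a second Mtf2 start. The palindrome AACCGGTT, a form of the GRHL motif, was searched on both strands. It was in 0 of the 15 windows and in 0.116% of all windows. The looser form AACNNGTT, which includes the first, was in 0 of the 15 windows and in 3.64% of all. These counts say only that the letters are not in these windows.

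Library depth, recovered from the steps between low values, was 8.86e+06 to 2.21e+07 reads. A count of 3 reads then corresponds to 0.136 to 0.339 CPM (counts of a gene scaled to a common library total), and such limits cover counting error only. The ribosomal RNA precursor Rn45s took 3.10% to 7.40% of reads in the 8 h libraries and 1.85% to 2.61% in the 16 h libraries. In 2 libraries it passed 7%: the third Kmt2c-KO ethanol 8 h library (7.40%) and the second double-KO tamoxifen 8 h library (7.37%), which was also the shallowest. Libraries of the double-KO tamoxifen 8 h group correlated least with the rest of their group. Grhl2 stood at 1.78 to 2.66 CPM (group means) without the transgene and at 41.2 to 178 CPM with it. Tags of Kmt2c and Kmt2d were present in every group, at mean levels of 11.2 to 29.5 and 6.91 to 18.2 CPM. A 3' tag may lie outside the deleted part, so these levels do not check the knockouts. All 10 naive stem cell markers were detected, with a summed level of 8408 to 12420 CPM in the Kmt2c-KO genotypes and 5203 to 6333 CPM in the double-KO line. Primitive endoderm markers (4 of 6 detected) summed to at most 5.39 CPM in the first and 16.99 to 40.8 CPM in the second. Neuroectoderm markers (3 of 4 detected) summed to 3.80 to 13.9 CPM and 29.7 to 82.8 CPM. Fibroblast markers (3 of 8 detected) stayed at or below 5.64 CPM. What part such cells had in the line differences below was not tested, and in bulk RNA fewer cells of a type and less RNA per cell cannot be told apart.

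**Figure D1:**
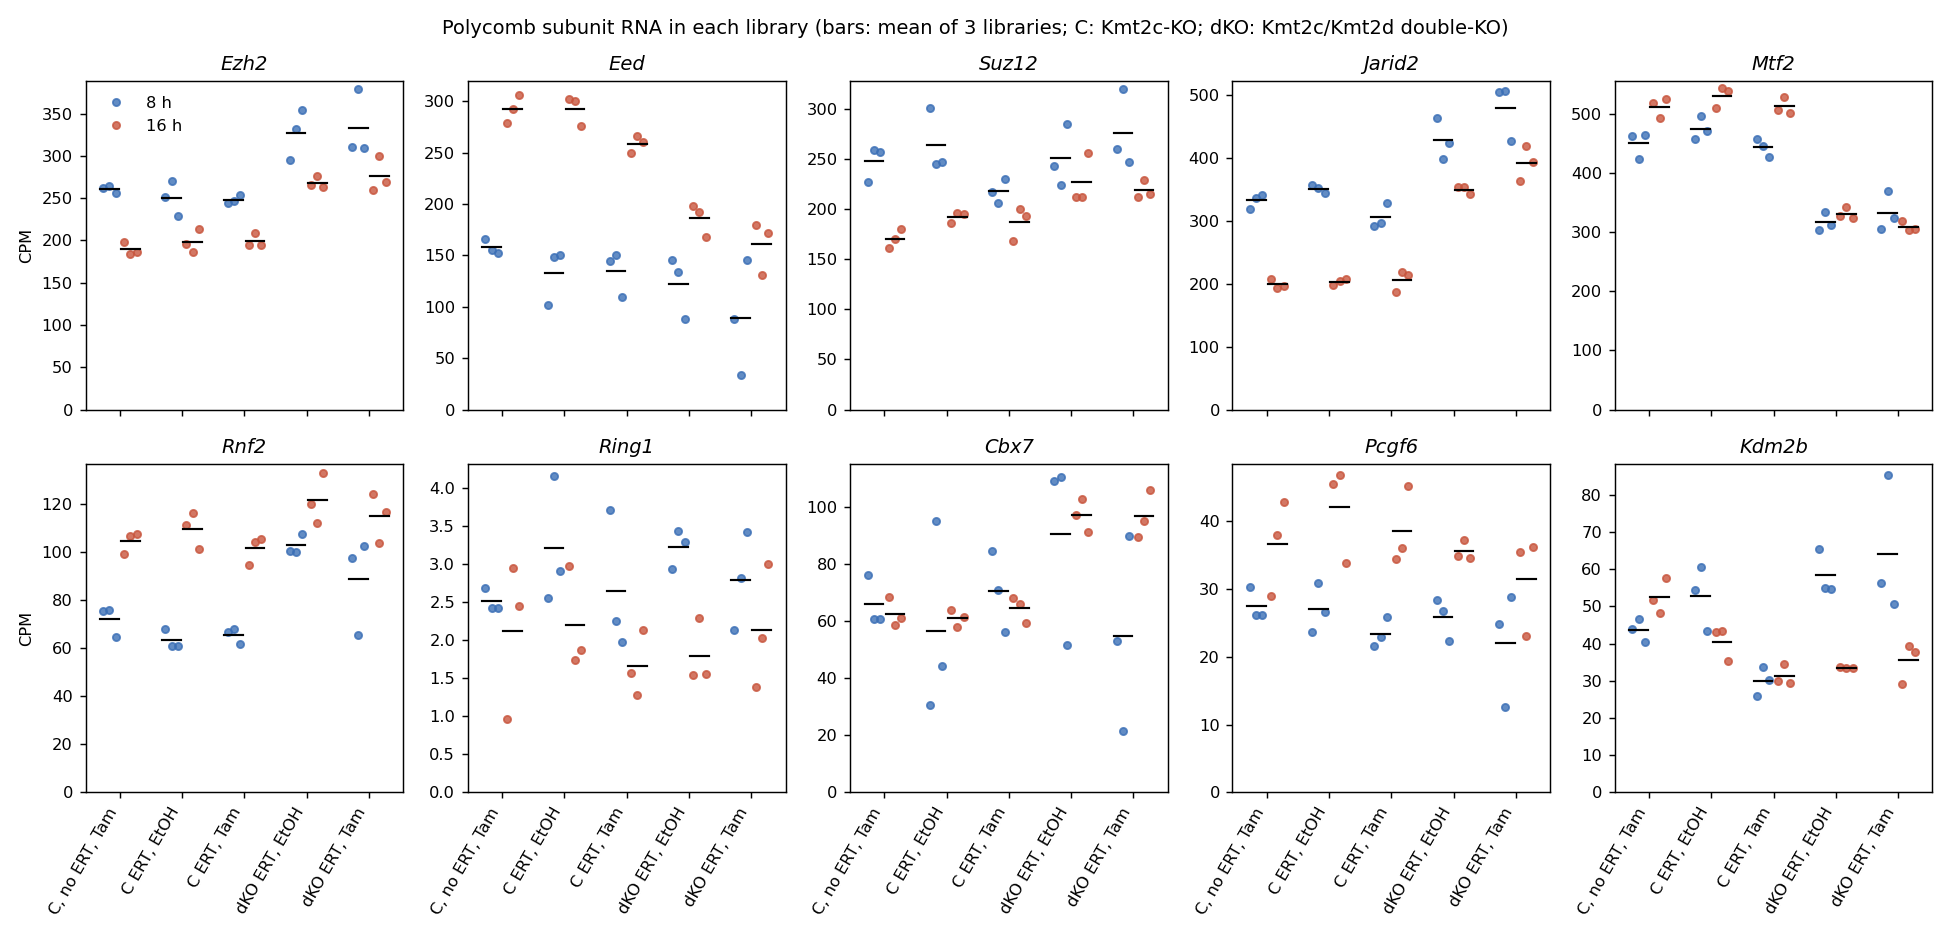
Level of each of the 10 Polycomb subunit transcripts in each of the 30 libraries, in CPM on the vertical axis, by group on the horizontal axis. Points are single libraries, and Mtf2 in the 12 double-KO libraries (302.6 to 368.3 CPM) lies below all 18 Kmt2c-KO libraries (422.8 to 542.9 CPM).

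The first question was how these genes respond when GRHL2 enters the nucleus. Of the 10 genes only Kdm2b, which recruits a PRC1 variant to CpG islands, changed on tamoxifen, and it did so in the Kmt2c-KO line at 8 h. In ethanol its level was 54.4, 60.5 and 43.5 CPM in the 3 libraries. In tamoxifen it was 25.9, 33.7 and 30.1 CPM. Every tamoxifen library lay below every ethanol library. The difference was -0.80 ± 0.16 (SE) on the log2(CPM + 1) scale, used for all differences below, with a 95% confidence interval of -1.12 to -0.47 and an adjusted p of 0.0020 (limma). This was 1 of 10 genes, against 4.95% of all 12414 genes tested. The mean level was 52.8 ± 8.63 CPM in ethanol and 29.9 ± 3.92 CPM in tamoxifen (SD, n = 3). Rn45s was higher in the ethanol libraries of this comparison (4.02% to 7.40%) than in the tamoxifen libraries (3.10% to 3.47%). With Rn45s as a covariate the difference was -0.75 (adjusted p = 0.023), and without the 2 libraries above 7% it was -0.93 (adjusted p = 2.6e-05).

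At 16 h the Kdm2b libraries read 43.0, 43.3 and 35.3 CPM in ethanol and 29.9, 34.6 and 29.5 CPM in tamoxifen. The groups again did not overlap, but the difference of -0.36 ± 0.16 did not pass (adjusted p = 0.92). At this time limma called 0 of the 10 genes in the Kmt2c-KO line, against 0.298% of all genes, with 1 of 10 at an unadjusted p under 0.05. In the double-KO line it called 0 of 10 at 8 h (0.0967% of all genes, 2 of 10 at an unadjusted p under 0.05) and 0 of 10 at 16 h (0.0403%, 0 of 10 unadjusted). Double-KO Kdm2b at 8 h was 65.5, 55.0 and 54.7 CPM in ethanol and 56.3, 85.4 and 50.5 CPM in tamoxifen. These groups overlapped, and the high tamoxifen value was the library with 7.37% Rn45s. The difference was 0.10 ± 0.16, with an interval of -0.22 to 0.42. At 16 h double-KO Kdm2b was 33.7, 33.3 and 33.5 CPM in ethanol and 29.1, 39.5 and 37.8 CPM in tamoxifen, a difference of 0.07 ± 0.16.

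Whether the Kdm2b response differed between the lines was tested directly. At 8 h the double-KO response exceeded the Kmt2c-KO response by 0.89 ± 0.22 (interval 0.44 to 1.35, adjusted p = 0.038), 1 of 10 genes against 1.43% of all genes. The call is fragile: it was lost on leaving out any of 7 of the 12 libraries, and without the second double-KO tamoxifen library it was 0.67 (adjusted p = 0.093). The libraries whose omission ended it were the first Kmt2c-KO ethanol library, all 3 Kmt2c-KO tamoxifen libraries, the first and second double-KO ethanol libraries and that second double-KO tamoxifen library. It was also lost with Rn45s as a covariate (0.83, adjusted p = 0.44) and with array weights (0.76, adjusted p = 0.66). Without the third double-KO tamoxifen library the count of called genes for this difference was 5, and without the second Kmt2c-KO ethanol library it was 2. The shares of all genes under these omissions were not worked out. Grhl2 itself stood at 178 and 170.1 CPM in Kmt2c-KO ethanol and tamoxifen and at 41.2 and 78.3 CPM in the double-KO line at this time, and its part in the difference was not tested. At 16 h limma called 0 of 10 genes for this difference (0.00% of all genes), with 0 of 10 at an unadjusted p under 0.05. Kdm2b then differed by 0.43 ± 0.22.

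A second reference for the Kmt2c-KO tamoxifen libraries is the transgene-free line under tamoxifen, so these comparisons share the tamoxifen libraries with the ones above. Kdm2b without the transgene was 44.1, 46.6 and 40.3 CPM at 8 h and 51.6, 48.2 and 57.7 CPM at 16 h. All 6 values lay above the GRHL2-ERT tamoxifen libraries of the same time. The 2 references were not alike. Mean Kdm2b was 43.7 CPM at 8 h and 52.5 CPM at 16 h without the transgene, against 52.8 and 40.5 CPM in GRHL2-ERT ethanol. At 16 h every GRHL2-ERT ethanol library also lay below every transgene-free library. The difference between the references was not tested. With the transgene Kdm2b differed by -0.54 ± 0.16 at 8 h (adjusted p = 0.049, 1 of 10 genes against 4.07% of all) and by -0.73 ± 0.16 at 16 h (adjusted p = 0.015, 1 of 10 against 0.975%). The 8 h call was lost on leaving out any one of the 6 libraries, and the 16 h call on leaving out any of 4 of the 6: the first or the third library of either group. With median-of-ratios scaling the 8 h difference was -0.54 (adjusted p = 0.059) and no longer called. The Kdm2b gene (5:122870665-122989823, minus strand) is overlapped at its last exon by Rnf34 on the other strand. Use of strand in the counting is not given in the sources used here, so tags of the 2 genes may not be fully separated. Rnf34 differed by 0.25 on tamoxifen in the Kmt2c-KO line at 8 h (adjusted p = 0.61).

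The other 9 genes did not pass in any tamoxifen comparison. With Rn45s as a covariate Pcgf6 was also called in the Kmt2c-KO line at 8 h, at -0.74 (adjusted p = 0.029) against -0.20 without it. Suz12, the scaffold of PRC2, was 300.4, 245 and 246 CPM in Kmt2c-KO ethanol at 8 h and 217, 206 and 230.2 CPM in tamoxifen. Jarid2, an accessory PRC2 subunit that binds nucleosomes, was 357, 352 and 344 CPM and then 292, 297 and 328 CPM. For both genes the groups did not overlap, with differences of -0.27 ± 0.11 (adjusted p = 0.18) and -0.20 ± 0.09 (adjusted p = 0.20). Intervals for the catalytic subunit Ezh2 were narrow in all 4 comparisons, none reaching beyond -0.19 or 0.23. In the double-KO line at 8 h the chromodomain protein gene Cbx7 was 109, 110.5 and 51.7 CPM in ethanol and 52.8, 21.6 and 89.7 CPM in tamoxifen, a difference of -0.85 ± 0.37 (adjusted p = 0.22). Leaving out the third of those tamoxifen libraries kept the one with 7.37% Rn45s (Cbx7 21.6 CPM) and raised the count of called genes there from 0 to 4. These were Eed -1.13 (adjusted p = 0.0060), Cbx7 -1.31 (0.014), Rnf2 -0.36 (0.040) and Jarid2 0.24 (0.047). The share of all genes called under that omission was not worked out, so the count has no background beside it.

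**Figure D2:**
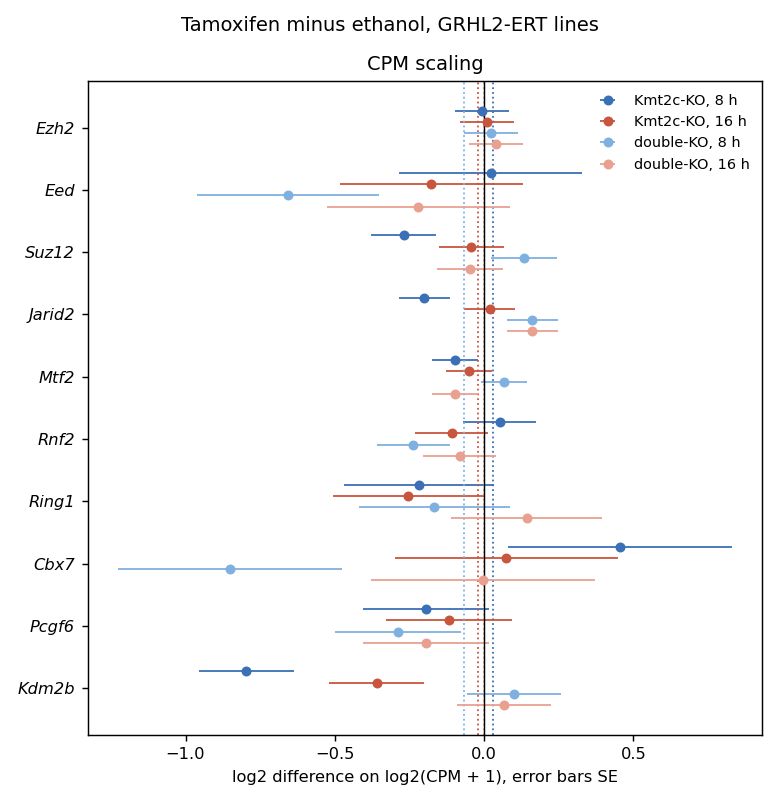
Tamoxifen minus ethanol for each of the 10 genes, on the log2(CPM + 1) scale on the horizontal axis, in the Kmt2c-KO and double-KO lines at 8 h and 16 h. Points are limma estimates with standard errors, and Kdm2b in the Kmt2c-KO line at 8 h (-0.80) is the one estimate that passed.

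The second question was how the 2 transgenic lines differ. Mtf2 was lower and Jarid2 and Ezh2 higher in the double-KO line at both times and under both treatments on the CPM scale. With median-of-ratios scaling Jarid2 in ethanol at 8 h changed sign, and no Ezh2 difference was called. Rnf2 was higher at 8 h on the CPM scale, and on the other scale only its ethanol difference was called. In ethanol 4 of the 10 genes were called at 8 h (3 higher, 1 lower; 49.4% of all genes) and 3 of 10 at 16 h (2 higher, 1 lower; 50.0%). In tamoxifen the counts were 7 of 10 at 8 h (5 higher, 2 lower; 44.5%) and 3 of 10 at 16 h (2 higher, 1 lower; 51.3%). Of all genes 37.6%, 40.0%, 30.6% and 41.2% were called higher and 11.9%, 9.96%, 14.0% and 10.1% lower, in the order ethanol 8 h and 16 h, tamoxifen 8 h and 16 h. The share of the 10 genes was below that of all genes in 3 of the 4 comparisons and above it in tamoxifen at 8 h, the comparison that holds the library with 7.37% Rn45s. Without the 2 libraries richest in Rn45s the counts were 5 of 10 in tamoxifen at 8 h (43.3% of all genes) and 5 of 10 at 16 h both in ethanol (56.5%) and in tamoxifen (58.1%). The median of all genes was shifted upward in the double-KO line by 0.31, 0.35, 0.18 and 0.35 in the same order. Median-of-ratios scaling, which centres the middle gene, brought that shift to 0.03 or less. Where that scale ended or made a call of one of the 10 genes, its value is given with the difference. The 10 genes' counts were then 3, 5, 4 and 4 (42.2%, 41.5%, 40.6% and 43.1% of all genes).

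Mtf2, a Polycomb-like protein that helps PRC2 bind CpG islands, showed the most uniform difference. In ethanol it was 457, 496 and 470.4 CPM at 8 h and 509, 543 and 539 CPM at 16 h in the Kmt2c-KO line. The double-KO libraries held 304, 334 and 311 CPM at 8 h and 327, 342 and 324 CPM at 16 h. No double-KO library reached the lowest Kmt2c-KO library. The differences were -0.58 ± 0.08 at 8 h (adjusted p = 5.3e-07) and -0.68 ± 0.08 at 16 h (3.6e-08), and in tamoxifen -0.42 (6.7e-05) and -0.73 (1.0e-08). On the median-of-ratios scale they were -0.90, -1.05, -0.62 and -1.11. Only the 8 h tamoxifen call was lost under any alternative, that with the contrast's own libraries alone. The Mtf2 last exon (gene at 5:108065674-108109004, plus strand) is overlapped on the other strand by Tmed5, which was higher in the double-KO line in ethanol by 0.52 at 8 h and 0.53 at 16 h, and was not called with median-of-ratios scaling (0.22 and 0.17).

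Jarid2 went the other way. Its ethanol libraries at 16 h were 198, 204 and 207 CPM in the Kmt2c-KO line and 353, 354 and 342 CPM in the double-KO line. At 8 h the double-KO libraries had 463, 398 and 423 CPM, all above the Kmt2c-KO values given above. The differences in ethanol were 0.28 ± 0.09 at 8 h (adjusted p = 0.0075) and 0.78 ± 0.09 at 16 h (2.0e-08). In tamoxifen they were 0.65 (6.5e-07) and 0.92 (8.4e-10), from double-KO libraries of 505, 506 and 428 CPM and of 363, 419 and 394 CPM. With median-of-ratios scaling 3 of these 4 calls held (0.41, 0.44 and 0.53), whereas the 8 h ethanol difference turned to -0.03 (adjusted p = 0.82). That 8 h call was also lost without the first double-KO ethanol library.

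Ezh2, the methyltransferase of PRC2, was higher in the double-KO line by 0.38, 0.44, 0.42 and 0.47 (SE 0.09 each, in the order ethanol 8 h and 16 h, tamoxifen 8 h and 16 h). In ethanol at 16 h its libraries were 195, 187 and 213 CPM against 266, 276 and 263 CPM, without overlap. The shift of the median gene was 0.31, 0.35, 0.18 and 0.35 in the same order, so the excess of Ezh2 over it was widest in tamoxifen at 8 h. With median-of-ratios scaling the differences were 0.07, 0.07, 0.21 and 0.08 and none was called. The call in tamoxifen at 8 h was also lost with array weights (0.36, adjusted p = 0.079) and with the contrast's own libraries alone (adjusted p = 0.072). Suz12 was called higher in tamoxifen at 8 h (0.33, adjusted p = 0.016), with double-KO libraries of 259, 319.5 and 247 CPM. Without the second of these it was 0.22 (adjusted p = 0.098), and it was also lost without the second Kmt2c-KO tamoxifen library. Further settings that ended it were median-of-ratios scaling (0.12, adjusted p = 0.45), array weights (0.24, 0.39), Rn45s as a covariate (0.18, 0.19) and the contrast's own libraries alone (0.33, 0.16). In ethanol at 16 h Suz12 was 0.23 (adjusted p = 0.083) on the CPM scale and -0.14 (0.40) on the other, and in tamoxifen 0.23 (0.087) and -0.16 (0.31). On the CPM scale both 16 h differences were called with array weights (0.0054 and 0.029) and with the contrast's own libraries alone (0.0015 and 0.041). Both were also called without the 2 libraries richest in Rn45s (0.038 and 0.041). Rn45s as a covariate called the ethanol difference (0.26, 0.024) and not the tamoxifen one (0.19, 0.097). On the median-of-ratios scale Suz12 was called in ethanol at 8 h, at -0.39 (adjusted p = 0.013), against -0.08 on the CPM scale.

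Eed, the subunit that reads methylated lysine 27, was lower in the double-KO line at 16 h in every library. In ethanol it was 302, 301 and 276 CPM in the Kmt2c-KO line and 198, 192 and 168 CPM in the double-KO line. In tamoxifen it was 249.8, 266 and 261 CPM against 179, 131 and 172 CPM. The groups did not overlap, but the 16 h differences of -0.65 ± 0.31 and -0.70 ± 0.31 did not pass (adjusted p of 0.081 in ethanol, 0.062 in tamoxifen). Median-of-ratios scaling brought both past the threshold (-1.02, adjusted p = 0.0044, and -1.08, 0.0027). Both were also called, unchanged in size, without the 2 libraries richest in Rn45s (0.0050 and 0.0030). The same held with array weights (3.3e-05 and 1.0e-04) and with the contrast's own libraries alone (2.3e-12 and 1.6e-04). Rn45s as a covariate called the ethanol difference (-0.77, 0.011) and not the tamoxifen one (-0.57, 0.051). At 8 h the tamoxifen difference of -0.81 was called (adjusted p = 0.036), although double-KO libraries of 88.1, 33.4 and 146 CPM overlapped Kmt2c-KO libraries of 144, 150.0 and 109.5 CPM. Leaving out the 33.4 CPM library, the one with 7.37% Rn45s, took it to -0.23 (adjusted p = 0.39). Leaving out the first or second Kmt2c-KO tamoxifen library also ended the call, as did array weights (-0.19, adjusted p = 0.72), Rn45s as a covariate (-0.30, 0.41) and the contrast's own libraries alone (adjusted p = 0.25). With median-of-ratios scaling it held at -1.01 (0.0050).

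Among PRC1 genes Rnf2, which encodes the main H2A ubiquitin ligase RING1B, was higher at 8 h. In ethanol its libraries were 67.9, 61.0 and 61.0 CPM in the Kmt2c-KO line and 101, 100.3 and 108 CPM in the double-KO line. The difference of 0.69 ± 0.12 (adjusted p = 3.7e-05) exceeded the shift of the median gene and remained called at 0.38 (0.0067) with median-of-ratios scaling. In tamoxifen it was 0.40 (adjusted p = 0.0083), with 1 double-KO library, at 65.6 CPM, inside the Kmt2c-KO range. That call was lost without the first or the third double-KO tamoxifen library and was 0.20 (adjusted p = 0.15) with median-of-ratios scaling. The contrast's own libraries alone also ended it (adjusted p = 0.18). At 16 h Rnf2 was 112, 116 and 101 CPM against 120.1, 112 and 133 CPM in ethanol, and 0.15 ± 0.12 missed the threshold, as did the -0.22 of median-of-ratios scaling. Trmt1l, on the other strand of its last exon, was also higher in double-KO ethanol at 8 h (0.84, adjusted p = 0.023), a call lost with median-of-ratios scaling (0.57, 0.11).

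Ring1 encodes the paralogous ligase RING1A and had only 16 to 76 reads a library. Its level was 0.972 to 4.16 CPM in the 18 Kmt2c-KO libraries and 1.38 to 3.45 CPM in the 12 double-KO libraries, and it was not called in any of the 16 comparisons. An SE of 0.25 on each line difference leaves intervals about 1 log2 unit wide, such as -0.50 to 0.54 in ethanol at 8 h.

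Cbx7 encodes the chromodomain subunit of canonical PRC1 that is typical of embryonic stem cells. At 16 h it was higher in every double-KO library: 63.7, 58.0 and 61.4 CPM against 97.0, 103 and 91.1 CPM in ethanol, and 67.9, 66.0 and 59.2 CPM against 89.5, 94.9 and 106 CPM in tamoxifen. The differences of 0.66 and 0.58 (SE 0.37) did not pass (adjusted p = 0.15 and 0.20), nor did the 0.29 and 0.20 of median-of-ratios scaling. Both were called with array weights (adjusted p = 0.0039 and 0.0060) and with the contrast's own libraries alone (4.0e-10 and 3.7e-04). With Rn45s as a covariate the tamoxifen difference was called (0.75, adjusted p = 0.025) and the ethanol difference was not (0.50, 0.13). Apobec3, on the other strand of Cbx7, was lower in the double-KO line, at -1.15 and -1.60 in ethanol and -2.30 and -1.77 in tamoxifen at 8 h and 16 h. The SE of Cbx7 is the largest of the 10, and its 8 h libraries spread from 30.5 to 94.9 CPM in Kmt2c-KO ethanol. Pcgf6, the subunit that defines the PRC1.6 variant acting at germline genes, was 45.5, 46.8 and 33.9 CPM in Kmt2c-KO ethanol at 16 h and 34.9, 37.2 and 34.6 CPM in the double-KO line. It was not called on the CPM scale, and on the median-of-ratios scale it differed at 16 h by -0.58 (adjusted p = 0.012) in ethanol and -0.68 (0.0039) in tamoxifen. Kdm2b was called once on the CPM scale, at 1.05 ± 0.16 (adjusted p = 4.7e-06) in tamoxifen at 8 h, where the Kmt2c-KO libraries of 25.9 to 33.7 CPM lay below all double-KO libraries. It held with median-of-ratios scaling (0.85, adjusted p = 1.4e-04), which also called Kdm2b in ethanol at 16 h, at -0.62 (adjusted p = 0.0031) against -0.26 on the CPM scale. It shares its libraries with the tamoxifen comparisons above.

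**Figure D3:**
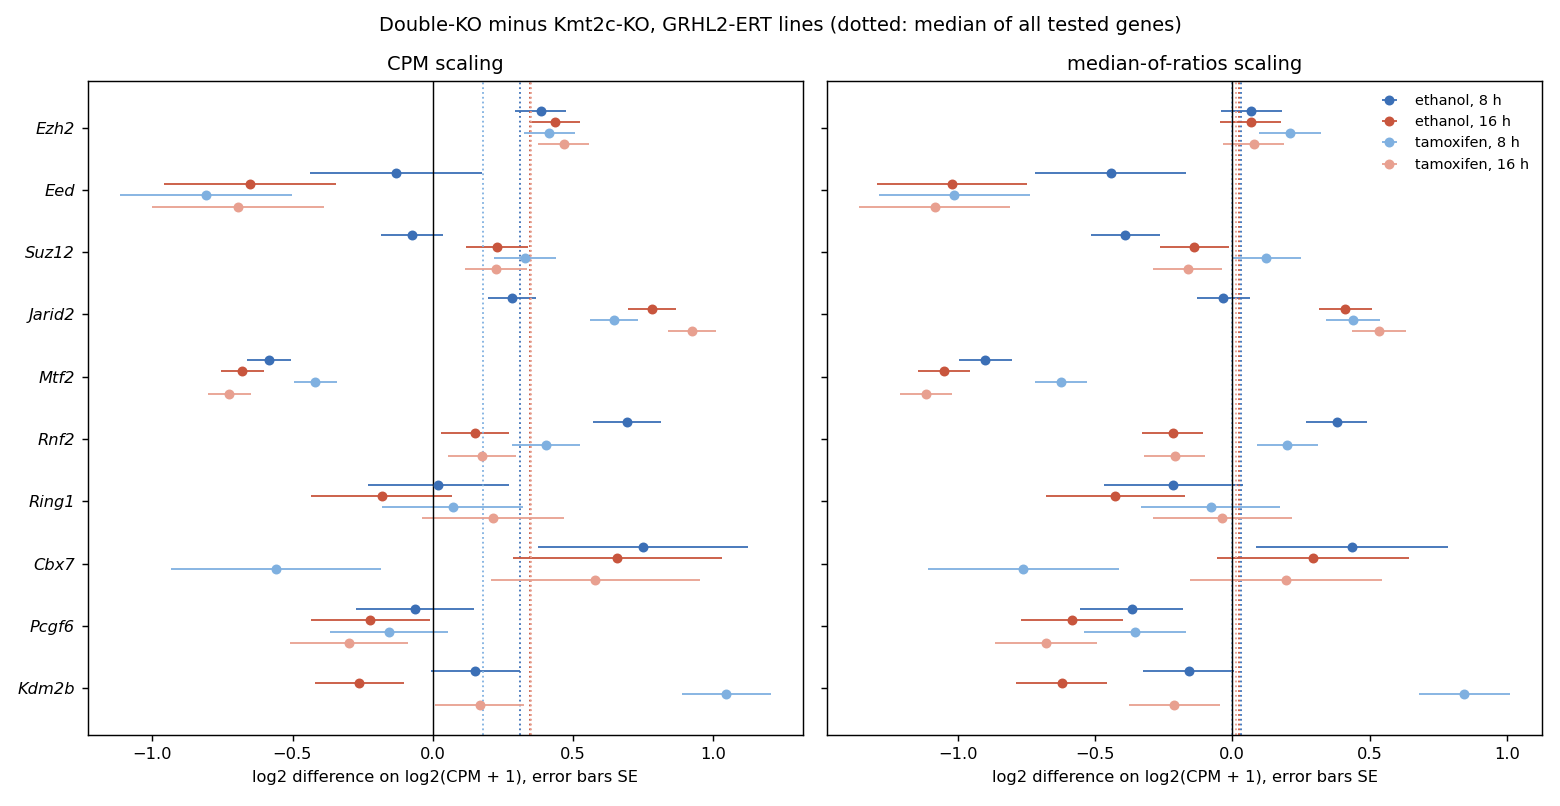
Double-KO minus Kmt2c-KO for each of the 10 genes on the log2 scale (horizontal axis), in ethanol and tamoxifen at 8 h and 16 h, with CPM scaling in one panel and median-of-ratios scaling in the other. Points are limma estimates with standard errors and dotted lines mark the median of all genes, and Mtf2 lies below 0 in both panels in all 4 comparisons whereas Ezh2 moves towards 0 in the second.

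The third question was how levels at 16 h compare with those at 8 h without nuclear GRHL2. In Kmt2c-KO ethanol cells 6 of 10 genes were called (45.0% of all genes): Jarid2, Suz12 and Ezh2 were lower at 16 h, and Eed, Rnf2 and Pcgf6 were higher. In transgene-free tamoxifen cells 5 of 10 were called (36.6%), 3 lower and 2 higher. In double-KO ethanol cells 3 of 10 were called (21.3%), all lower: Kdm2b, Jarid2 and Ezh2. That last count was 1 without the third double-KO 16 h library, and 6 (31.2% of all genes) without the 2 libraries richest in Rn45s, which added Eed (0.63, adjusted p = 0.014), Rnf2 (0.24, 0.043) and Pcgf6 (0.45, 0.031), all higher. Of all genes 17.5% were called higher and 27.5% lower in the first comparison, 10.9% and 25.7% in the second and 8.72% and 12.5% in the third. The 2 times also differ in Rn45s, whose 8 h and 16 h shares did not overlap, and libraries of the 2 times may differ in handling that the labels do not give. Summed trophoblast markers (4 of 6 detected) averaged 102.6 CPM at 8 h and 34.3 CPM at 16 h in Kmt2c-KO ethanol, 77.8 and 53.4 CPM in double-KO ethanol and 98.4 and 27.7 CPM in transgene-free cells. Markers of 2-cell-like cells (3 of 6 detected) averaged 0.689 and 7.03 CPM, 14.9 and 14.5 CPM, and 0.722 and 21.4 CPM in the same order. Their part in the differences between the times was not tested.

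The PRC2 core subunits moved apart. In Kmt2c-KO ethanol Eed went from 102, 148 and 150.4 CPM to the 276 to 302 CPM given above, a difference of 1.15 ± 0.31 (adjusted p = 0.0042). Suz12 fell from 245 to 300.4 CPM to 186, 196 and 195 CPM (-0.45 ± 0.11, adjusted p = 0.0016). Ezh2 fell from 252, 270.4 and 229 CPM to 187 to 213 CPM (-0.33 ± 0.09, adjusted p = 0.0039). No 8 h library overlapped the 16 h libraries for any of the 3. Transgene-free cells gave 0.89 for Eed (adjusted p = 0.027, lost on leaving out any of 5 of the 6 libraries, all but the first at 8 h), -0.53 for Suz12 (4.7e-04) and -0.46 for Ezh2 (3.0e-04). Over all 9 Kmt2c-KO libraries of each time Eed read 101.6 to 166 CPM at 8 h and 249.8 to 306 CPM at 16 h. In double-KO ethanol cells the Eed libraries were 146, 134 and 88.3 CPM at 8 h, all below those at 16 h, but 0.63 ± 0.31 was not called (adjusted p = 0.15). The double-KO ethanol difference of Ezh2, -0.28 ± 0.09 (adjusted p = 0.027), was lost on leaving out any of 5 of the 6 libraries, all but the first at 8 h. It was also lost with median-of-ratios scaling (-0.22, adjusted p = 0.17) and with Rn45s as a covariate (-0.16, 0.41). The Kmt2c-KO ethanol difference of Ezh2 was -0.22 (adjusted p = 0.11) with median-of-ratios scaling and no longer called. With Rn45s as a covariate the Kmt2c-KO ethanol differences were -0.01 for Eed, -0.12 for Suz12 and -0.17 for Ezh2, none of them called, and the transgene-free difference of Eed was 0.32 (adjusted p = 0.43). In double-KO ethanol that covariate turned Eed to -0.23 (adjusted p = 0.71).

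Jarid2 at 16 h differed from 8 h by -0.79 ± 0.09 in Kmt2c-KO ethanol (adjusted p = 7.2e-08) and by -0.74 ± 0.09 in transgene-free cells (2.9e-07). Its transgene-free libraries went from 319, 337 and 342 CPM to 207, 194 and 196 CPM, without overlap. Both calls held under every alternative run, including Rn45s as a covariate (-0.71 and -0.70). In the double-KO line it differed by -0.29 ± 0.09 (adjusted p = 0.016), a call lost without the first double-KO 8 h or the third double-KO 16 h library, with median-of-ratios scaling (-0.23, adjusted p = 0.0999) and with Rn45s as a covariate (-0.23, 0.19). The difference between the 2 ethanol changes, a comparison added after the values were seen, was 0.50 ± 0.12 (interval 0.25 to 0.74, adjusted p = 0.014), 1 of 10 genes against 4.84% of all. It was 0.44 (adjusted p = 0.058) with median-of-ratios scaling and was lost without the second double-KO ethanol 8 h library. Mtf2 differed by 0.16 ± 0.08 in Kmt2c-KO ethanol and 0.06 ± 0.08 in double-KO ethanol, neither called. With median-of-ratios scaling Mtf2 was called in Kmt2c-KO ethanol (0.28, adjusted p = 0.019) and in transgene-free cells (0.36, 0.0045). Tmed5, on the other strand of the Mtf2 last exon, was also higher at 16 h there, by 1.04 and 0.94 on that scale.

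Rnf2 rose to the 101 to 116 CPM given above, by 0.78 ± 0.12, in Kmt2c-KO ethanol (adjusted p = 1.2e-05). With Rn45s as a covariate it was 0.48 (adjusted p = 0.060) and no longer called. In transgene-free cells it went from 75.6, 75.9 and 64.8 CPM to 99.2, 107 and 108 CPM, a rise of 0.53 (adjusted p = 0.0013). The double-KO line, already at 101 to 108 CPM at 8 h, gave 0.24 ± 0.12 (adjusted p = 0.16). The difference between the lines was -0.54 ± 0.17 (adjusted p = 0.066) and passed with median-of-ratios scaling (-0.60, 0.023), array weights (-0.53, 0.0023), the contrast's own libraries alone (-0.54, 0.021) and without the 2 libraries richest in Rn45s (-0.52, 0.014). Trmt1l, on the other strand of the Rnf2 last exon, was also higher at 16 h. It differed by 1.85 in Kmt2c-KO ethanol (adjusted p = 2.6e-05), 1.36 in double-KO ethanol (0.0024) and 1.38 in transgene-free cells (9.2e-04). Its part in the Rnf2 values was not tested. Pcgf6 rose from 23.7, 30.9 and 26.6 CPM to 33.9 to 46.8 CPM in Kmt2c-KO ethanol (0.61 ± 0.21, adjusted p = 0.020), a call lost without the first ethanol 8 h library or the first or second ethanol 16 h library, and with Rn45s as a covariate, where the value was -0.30. In transgene-free cells Pcgf6 differed by 0.38, not called, and by 0.55 (adjusted p = 0.022) with median-of-ratios scaling. With Rn45s as a covariate that difference was -0.06 (0.84). Kdm2b fell in double-KO ethanol cells from 54.7 to 65.5 CPM to 33.3 to 33.7 CPM. That difference of -0.78 ± 0.16 (adjusted p = 0.0011) held under every alternative run, with -0.71 on the median-of-ratios scale. In Kmt2c-KO ethanol it was -0.37 ± 0.16 (adjusted p = 0.059), and in transgene-free cells 0.26 ± 0.16 (0.21). The first was called with a replicate block over all libraries (adjusted p = 0.046) and with array weights (0.030). The contrast's own libraries alone (0.036) and leaving out the 2 libraries richest in Rn45s (-0.50, 0.0032) also called it. With Rn45s as a covariate it was -0.28 (0.46). Median-of-ratios scaling called the transgene-free difference of Kdm2b (0.43, 0.045).

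**Figure D4:**
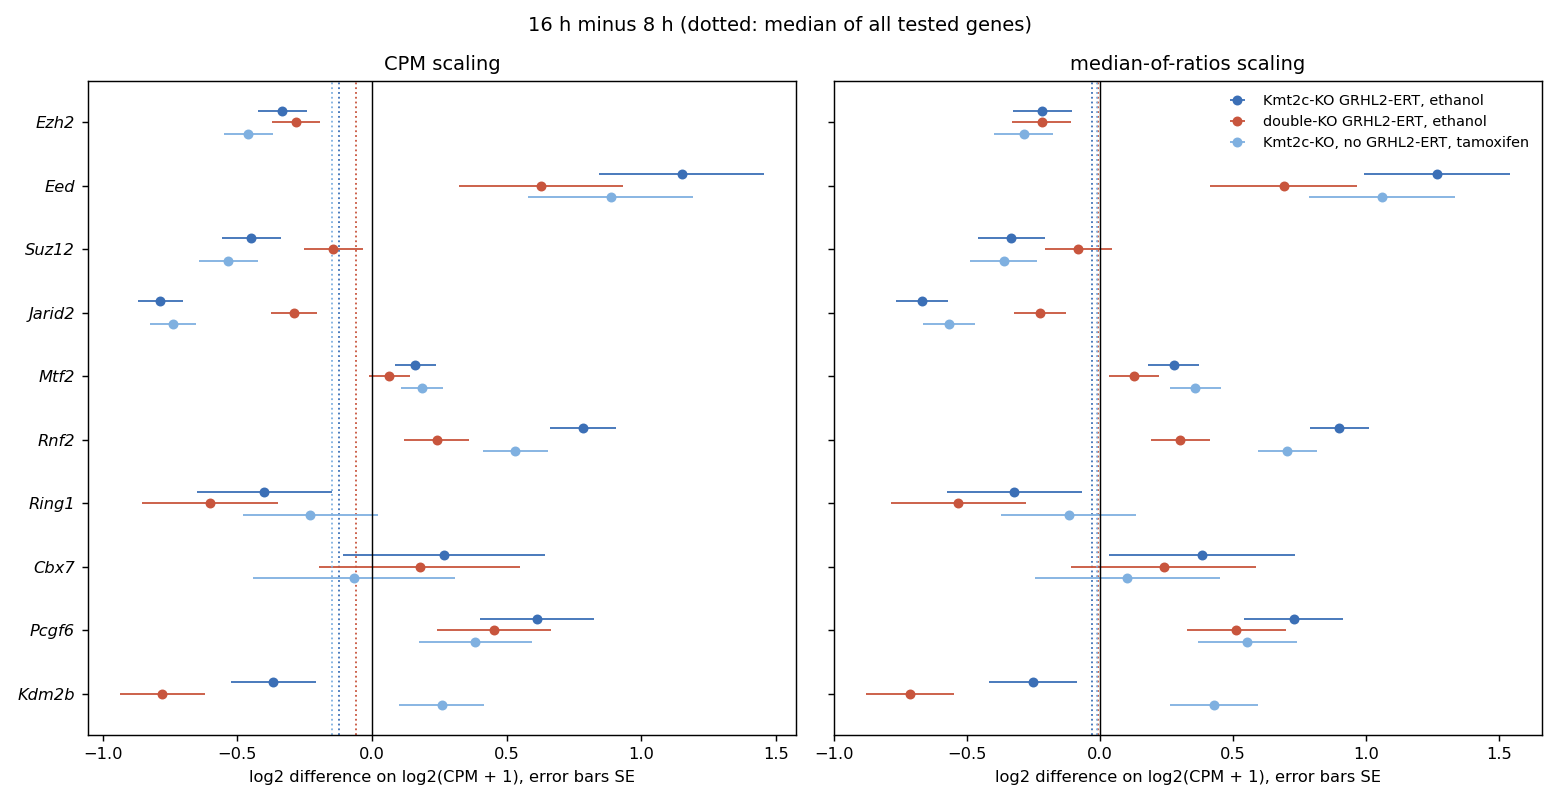
Level at 16 h minus 8 h for each of the 10 genes on the log2 scale (horizontal axis), in Kmt2c-KO ethanol, double-KO ethanol and transgene-free tamoxifen cells, with CPM scaling in one panel and median-of-ratios scaling in the other. Points are limma estimates with standard errors, and Eed and Rnf2 lie above 0 and Jarid2 below 0 in all 3.

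Some of the 10 varied more than others within the 8 h libraries. Eed, Cbx7, Pcgf6 and Rnf2 were each at their lowest in the double-KO tamoxifen library with 7.37% Rn45s among the 6 double-KO libraries of that time: 33.4, 21.6, 12.5 and 65.6 CPM. In that library Ezh2, Suz12, Mtf2 and Kdm2b were at their highest of the same 6, at 379, 319.5, 368 and 85.4 CPM. In Kmt2c-KO ethanol at 8 h Cbx7 was 30.5, 94.9 and 44.3 CPM where Rn45s was 5.39%, 4.02% and 7.40%. The library at 7.40% was thus not the lowest of its group for Cbx7. It held the highest Eed of that group, at 150.4 CPM against 102 and 148 CPM. The part of RNA quality in these values was not tested.

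**Figure D5:**
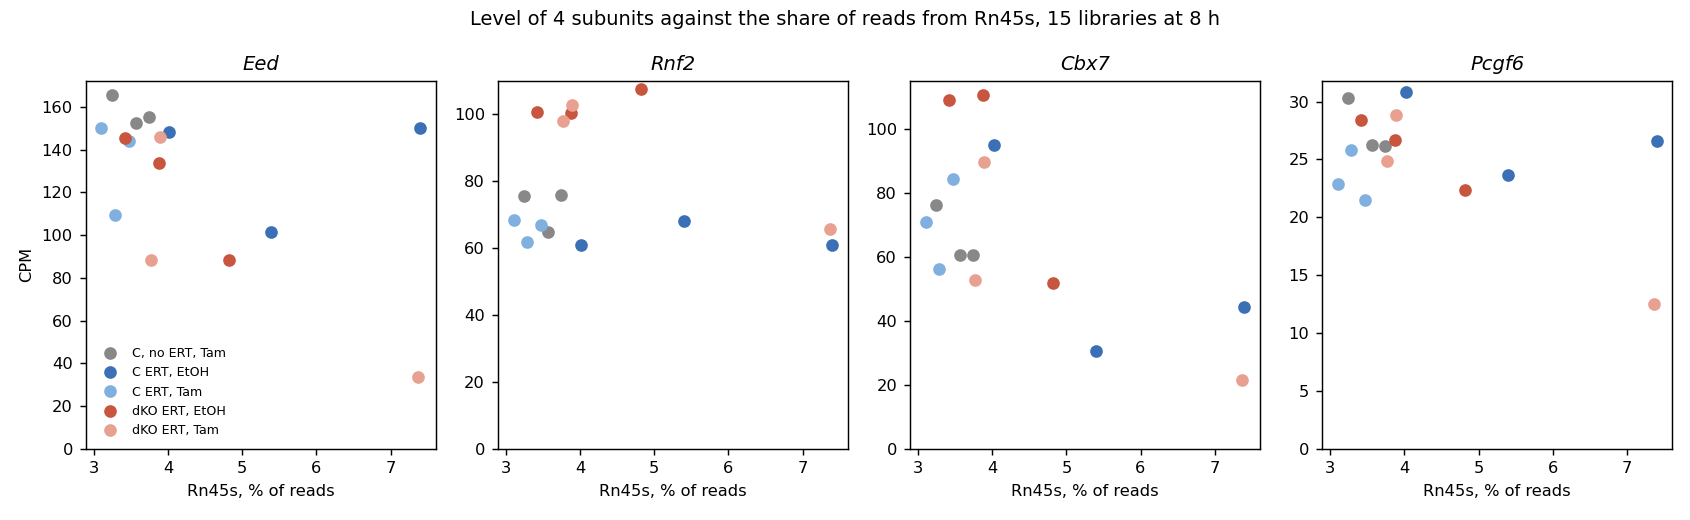
Level of Eed, Rnf2, Cbx7 and Pcgf6 in CPM (vertical axis) against the share of reads from Rn45s in percent (horizontal axis) in the 15 libraries harvested at 8 h. Each point is 1 library, and the double-KO tamoxifen library at 7.37% has the lowest Eed (33.4 CPM), Cbx7 (21.6 CPM) and Pcgf6 (12.5 CPM) of the 15. The Kmt2c-KO ethanol library at 7.40% has Eed at 150.4 CPM, Cbx7 at 44.3 CPM and Pcgf6 at 26.6 CPM.

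Across the 10 group means the genes of one complex did not share one pattern. On the log2(CPM + 1) scale Ezh2 and Jarid2 correlated at 0.979, whereas Eed and Ezh2 correlated at -0.906 and Eed and Pcgf6 at 0.944. These are descriptions over 10 groups that share lines and times, with no test. Group means of 4 genes spanned at least 1 log2 unit: Eed (1.94), Jarid2 (1.26), Kdm2b (1.05) and Cbx7 (1.03). Among 7371 genes with such a span, the genes most like Eed were Hells (Pearson r 0.994), Tipin (0.992) and Sucla2 (0.991). Those most like Jarid2 were Slc39a7 (0.996), Dst (0.994) and Taok2 (0.993). Those most like Cbx7 were Atp5g3 (0.975), Yap1 (0.959) and Rraga (0.955), and for Kdm2b the values were lower, with She (0.877), Dcbld1 (0.860) and Syk (0.860).

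Other genes of the pathway were read from lists of complex members. Of 9 further PRC2 genes 8 were in the table, all but Epop, and 7 had at least 1 CPM in both lines. Of these 7, Aebp2, a DNA-binding cofactor, was lower in the double-KO line in all 4 line comparisons, with differences of -0.42 and -0.45 in ethanol and -0.90 and -0.54 in tamoxifen at 8 h and 16 h. The alternative methyltransferase Ezh1 was lower at 8 h, at -0.65 in ethanol and -0.53 in tamoxifen, and Lcorl was higher in ethanol at 16 h by 0.67, a call lost with median-of-ratios scaling (0.35, adjusted p = 0.14). No other of the 7 was called between the lines on the CPM scale. Of 35 further PRC1 genes 32 had at least 1 CPM in both lines, and in ethanol 14 were higher and 3 lower at 8 h (37.6% and 11.9% of all genes) and 17 higher and 3 lower at 16 h (40.0% and 9.96%). With median-of-ratios scaling these splits were 8 and 8 (20.9% and 21.3% of all genes), and 12 and 9 (20.7% and 20.8%). Yaf2, a partner of the RING proteins in variant PRC1, was higher in ethanol at 8 h, at 6.91 ± 1.495 CPM in the Kmt2c-KO line and 30.3 ± 3.48 CPM in the double-KO line (SD, n = 3), a difference of 2.00 ± 0.18 (adjusted p = 7.0e-10). It was 1.98 at 16 h, and 1.70 and 1.63 with median-of-ratios scaling. Bmi1, encoding a PCGF subunit of canonical PRC1, was higher by 1.45 at both times, and Mga, the DNA-binding partner in PRC1.6, was lower, at -0.56 and -0.58. On tamoxifen 1 of the 32 was called, in the Kmt2c-KO line at 8 h, against 4.95% of all genes. There the polyhomeotic gene Phc1 went from 79.8 ± 10.0 CPM in ethanol to 57.5 ± 0.942 CPM (-0.46 ± 0.10, adjusted p = 0.0057).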

How the data were processed

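Libraries were made with a QuantSeq 3' mRNA-Seq FWD kit and sequenced single end, per the labels' protocols. Salmon, DESeq2 1.34.0 and the mm10 genome are named in the submitters' processing notes. Use of strand in the counting is not given in the sources used here. The authors deposited log2 values for 12428 genes in 30 libraries. Undoing an offset of 0.124871 CPM returned CPM summing to 1e+06 in each library. Between 95.5% and 97.5% of low values were then whole multiples of 1 read, within 0.05 reads, which gave each library's depth.

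Levels were analysed as log2(CPM + 1) with limma 3.58.1 (trend, robust; R 4.3.3) on group means of all 30 libraries, with 20 residual degrees of freedom, 2-sided tests and Benjamini-Hochberg adjustment over 12414 genes (14 with every group mean under 1 CPM were removed). A gene was called at an adjusted p under 0.05. There were 16 comparisons, 1 of them (the line difference of the 16 h minus 8 h change) added after values were seen. No count model was run, since the deposited values are not counts. The fit was tested on simulated data. The labels do not say that replicates were separate cultures, so p-values measure only the spread between these libraries. No 2 libraries were identical. Members and lists were chosen with earlier results of these data known. All 10 members are described. From the other lists, up to 4 called genes with the smallest adjusted p and any needed to account for a small count were named, and genes most like a member are the 3 with the highest correlation of group means. Yaf2, Bmi1 and Mga were singled out among the further PRC1 genes after their values were seen. Gene positions are from GENCODE M21 (mm10). Alternatives were pseudocounts, the filter, median-of-ratios scaling, replicate blocks, array weights, Rn45s as a covariate, the contrast's libraries alone, leaving out each library and, added after seeing the data, leaving out the 2 libraries richest in Rn45s. The same replicate numbers in different groups did not pair the libraries.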

Additional observations from a re-analysis of the deposited data

Results flagged for a closer look

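The change of Kdm2b on tamoxifen at 8 h differed between the lines in a direct test: the double-KO change exceeded the Kmt2c-KO change by 0.89 ± 0.22 on the log2(CPM + 1) scale (limma, adjusted p = 0.038). All 3 Kmt2c-KO tamoxifen libraries lay below all 3 ethanol libraries, and the double-KO groups overlapped. The call is fragile, as said above. It was lost with Rn45s as a covariate (adjusted p = 0.44), array weights (0.66), the contrast's own libraries alone (0.44) and replicate blocks within line and time (0.17). Leaving out the second double-KO tamoxifen library, among others, also ended it (0.093).

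The change of Jarid2 from 8 h to 16 h in ethanol also differed between the lines, by 0.50 ± 0.12 (limma, adjusted p = 0.014), in the comparison added after values were seen. Jarid2 was lower at 16 h in both lines, with a fall of 0.79 in the Kmt2c-KO line and of 0.29 in the double-KO line. With median-of-ratios scaling the line difference was 0.44 (adjusted p = 0.058) and no longer called, and it was also lost without the second double-KO ethanol 8 h library.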

How the results depend on the processing

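Over 2640 recomputed values of the 10 genes, 2344 kept their sign and their side of the threshold, 71 gained a call, 76 lost one and 149 changed sign. Of those 149, 145 were called neither before nor after, 82 of the 149 on leaving out 1 library, 31 with Rn45s as a covariate, 15 with median-of-ratios scaling, 12 with array weights and 9 without the 2 libraries richest in Rn45s. The 4 sign changes of a value called before or after were Jarid2 between the lines in ethanol at 8 h with median-of-ratios scaling (-0.032) and, in the 16 h minus 8 h comparison of Kmt2c-KO ethanol cells with Rn45s as a covariate, Eed (-0.0148), Cbx7 (-1.27) and Pcgf6 (-0.30). The cause was not tested.

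Counts of called genes moved as follows, and smaller moves are not listed. Shares of all genes were not worked out for pseudocounts, array weights, Rn45s as a covariate or the contrast's libraries alone. For median-of-ratios scaling they were worked out between the lines and, for lower genes only, between the times. Without the 2 libraries richest in Rn45s they were not worked out for the difference of time changes. Counts without such a share have no background beside them. With versus without the transgene at 8 h, the count of 1 became 0 with a pseudocount of 0.1 or 5 CPM and with median-of-ratios scaling. That scaling also gave 5 (from 3) between the lines in ethanol at 16 h, 4 (from 7) in tamoxifen at 8 h, and for 16 h minus 8 h 1 (from 3) in double-KO ethanol and 8 (from 5) in transgene-free cells. Array weights gave 0 (from 1) for the difference of tamoxifen responses at 8 h, 7 (from 3) between the lines at 16 h in ethanol and in tamoxifen, 4 (from 7) in tamoxifen at 8 h, 7 (from 3) for the double-KO time change and 4 (from 1) for the difference of time changes. Rn45s as a covariate gave 2 (from 1) for Kmt2c-KO tamoxifen at 8 h, 0 for the difference of responses, 5 between the lines in ethanol at 16 h, and 2 (from 6) and 1 (from 3) for the Kmt2c-KO and double-KO time changes. The contrast's libraries alone gave 0 for the difference of responses, 7, 2 and 6 between the lines (ethanol 16 h, tamoxifen 8 h and 16 h), 5 for the double-KO time change and 2 for the difference of time changes. Without the 2 libraries richest in Rn45s the counts were 5 and 5 between the lines at 16 h, 6 for the double-KO time change and 2 for the difference of time changes.

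Leaving out 1 library at a time gave 0 to 0 for the transgene comparison at 8 h and 0 to 1 at 16 h, 0 to 4 for double-KO tamoxifen at 8 h, 0 to 5 for the difference of responses at 8 h, 3 to 5 between the lines in ethanol at 8 h, 5 to 7 in tamoxifen at 8 h, 5 to 7, 1 to 2 and 4 to 5 for the Kmt2c-KO, double-KO and transgene-free time changes, and 0 to 1 for the difference of time changes. The other 6 counts did not move. Shares of all genes were not worked out for the fits with 1 library left out.

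Libraries sharing a replicate number across groups did not deviate together: over 12 pairs of same-numbered libraries, 3 in each line and time, the correlations were -0.73 to 0.25, with 2 above 0.1. With the replicate number as a block within line and time, the Kmt2c-KO tamoxifen fall of Kdm2b at 8 h kept its call (-0.80, adjusted p = 0.026), and its difference between the lines did not (0.89, adjusted p = 0.17), a count of 0 from 1. Depth limits Ring1 most, with 16 to 76 reads a library.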

Other observations

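Genes that Polycomb complexes are known to hold silent were read from 2 further lists, with their counts as a description. Of 54 developmental targets 31 were in the table and 11 had at least 1 CPM in both lines. Of these 11, in ethanol 7 were higher and 1 lower in the double-KO line at 8 h (37.6% and 11.9% of all genes) and 9 were higher and 1 lower at 16 h (40.0% and 9.96%). In tamoxifen 2 were higher and 0 lower at 8 h (30.6% and 14.0%) and 8 higher and 1 lower at 16 h (41.2% and 10.1%). The median difference of the 11 was 1.08 and 1.44 in ethanol and 0.21 and 1.73 in tamoxifen. With median-of-ratios scaling the ethanol splits were 6 and 1 (20.9% and 21.3% of all genes), and 7 and 1 (20.7% and 20.8%). The tamoxifen splits were 2 and 0, and 6 and 1, where 40.6% and 43.1% of all genes were called in either direction. Another 19 averaged under 1 CPM over all Kmt2c-KO libraries, with or without the transgene, and 1 over all double-KO libraries. These may have passed the filter through the other line alone and are not in the counts. Of 24 germline targets of PRC1.6, 16 had at least 1 CPM in both lines, and in ethanol 6 were higher and 5 lower at 8 h and 7 higher and 4 lower at 16 h, beside the same shares of all genes. With median-of-ratios scaling these were 3 and 6, and 5 and 5, against 20.9% and 21.3%, and 20.7% and 20.8%, of all genes.

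Enzymes that act against Polycomb marks, or that write the active marks, were compared between 16 h and 8 h. Of 11 tested, 8 were lower and 0 higher in Kmt2c-KO ethanol (27.5% of all genes lower), 5 and 0 in double-KO ethanol (12.5%) and 8 and 0 in transgene-free cells (25.7%). With median-of-ratios scaling 5, 5 and 6 were lower and 0 higher (21.7%, 8.23% and 16.2% of all genes lower). The acetyltransferase genes Crebbp and Ep300 differed by -1.61 ± 0.15 and -1.10 ± 0.12 in Kmt2c-KO ethanol, and the methyltransferase gene Kmt2a by -1.37 ± 0.16. Between the lines in ethanol, 3 of the 11 were higher and 2 lower in the double-KO line at 8 h (37.6% and 11.9% of all genes). At 16 h 4 were higher and 0 lower (40.0% and 9.96%). With median-of-ratios scaling these splits were 0 and 4 (20.9% and 21.3%), and 2 and 3 (20.7% and 20.8%). Crebbp was among those higher on the CPM scale, by 0.62 at 8 h and 1.15 at 16 h. With median-of-ratios scaling the 8 h call was lost (0.30, adjusted p = 0.14) and the 16 h difference was 0.79 (2.7e-04).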
